A study of Mus musculus with 21 samples.

Results

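A set of 38 genes of the p53 and apoptosis pathway was followed in embryonic mouse hearts with and without the chromatin remodeller CHD4, out of 24509 genes in the deposited expression tables. The 38 were chosen by name: Trp53 itself, well-known p53 targets, and genes of the mitochondrial and receptor routes to apoptosis. Cardiac tissue of CD1 embryos was profiled by polyA RNA sequencing in 16 libraries. At embryonic day (E) 9.5 there were 5 control libraries with floxed Chd4 alleles (flox) and 5 libraries with recombined, CHD4-depleted alleles (null, Chd4Δflox/Δflox), and 3 of each genotype were made at E10.5. CHD4 binding was mapped at E10.0 by chromatin immunoprecipitation (ChIP) of wild-type hearts, giving 3 peak lists from 2 biological samples. What drives recombination, in which cells, and whether hearts were pooled are not given in the sources used here. In the series text the RNA libraries are called biological replicates. The E9.5 libraries held 17.1 to 23.5 M reads, and those of E10.5 held 17.3 to 18.9 M. Because whole hearts were sequenced, fewer cells of a type and less RNA per cell cannot be told apart in any difference below.

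The transcription factor p53 is kept scarce in unstressed cells by Mdm2, a ubiquitin ligase that is itself a p53 target, and it accumulates when DNA is damaged or cells are stressed. It then switches on genes that stop the cell cycle, such as Cdkn1a, which codes for the kinase inhibitor p21, and genes that promote cell death, such as Bax, Bbc3 (PUMA) and Pmaip1 (NOXA). BH3-only proteins of the latter kind release the effectors Bax and Bak1 from guardians such as Bcl2, which opens the mitochondrial membrane and lets Apaf1 activate caspases. CHD4 is the ATPase of the nucleosome remodelling and deacetylase complex, and mouse embryos that lack Mdm2 die through unrestrained p53.

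Chd4 RPKM, the reads per kilobase of gene scaled to library size, was 91.2 to 94.6 in flox and 40.7 to 48.8 in null libraries at E9.5. At E10.5 it was 67.2 to 91.1 in flox and 48.2 to 57.4 in null libraries, and there the difference did not pass the test (limma adjusted p = 0.116), although the groups did not overlap. These values count reads over the whole gene, and the sources used here do not name the deleted exons. Cardiomyocyte markers were abundant in all libraries, with summed levels of 12706 RPKM or more at E9.5 and 7342 or more at E10.5. Other cell type markers also moved with genotype. At E9.5, 11 of 12 erythroid markers were higher in null, with a sum of 10990 to 28030 RPKM in flox and 27815 to 75115 in null libraries. At this stage 3 of 8 cardiomyocyte markers were lower in null, and 0 of the tested endothelial and endocardial (8), epicardial (7), cushion mesenchyme (8), foregut and liver (4), neuronal (3), macrophage (4) and handling stress (7) markers were called, with 1, 0, 3, 0, 0, 2 and 2 of them at an unadjusted p under 0.05 in limma. At E10.5, 1 epicardial and 1 cushion mesenchyme marker were higher, and 0 erythroid, cardiomyocyte, endothelial and endocardial, foregut and liver, neuronal, macrophage or handling stress markers were called in limma, with 1, 0, 2, 4, 1, 3 and 2 of them at an unadjusted p under 0.05. The epicardial sums did not overlap at E10.5, at 211 to 249 RPKM in flox and 291 to 340 in null libraries. Their log2 differences were above 0 for 4 of 8 markers and below 0 for 4. Endothelial and endocardial markers had differences below 0 in 7 of 8, with overlapping sums of 254 to 312 RPKM in flox and 210 to 289 in null. In the next 3 lists the sums also overlapped between the genotypes. The foregut and liver markers summed to 3.42, 181 and 9.70 RPKM in flox and 24.5, 1374 and 945 in null libraries, with a median log2 difference of 2.61. The macrophage markers summed to 5.17, 18.98 and 11.9 RPKM in flox and 13.97, 28.5 and 29.7 in null libraries. The erythroid markers summed to 24789, 68033 and 24250 RPKM in flox and 58204, 46489 and 141957 in null libraries. The part of these in the E10.5 results was not tested, apart from fits with the erythroid or the epicardial level. The E9.5 flox group held 1 XY library and the null group 3, by Xist against a Y-linked gene. Hypoxia markers were high in flox 4 and null 4 at E9.5 and in every null library at E10.5.

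Promoters of 4 genes are printed because they carry the contrasts that recur in the results: the gene with calls at both stages (Cdkn1a), a death effector with a CHD4 peak over a p53-like element (Bax), and called genes with (Gadd45a) and without (Eda2r) a CHD4 peak. Each line gives the 250 bases before an annotated transcription start, read on the gene's strand, from RefSeq on GRCm38.p6. Capitals mark a match to the p53 response element, which is 2 sites of 10 bases in a row or a short distance apart. The first Cdkn1a line is the window at chr17:29090729-29090978 on the plus strand, and the other is at chr17:29093519-29093768, before the downstream start. The Bax window is chr7:45466899-45467148 on the minus strand, the Gadd45a window chr6:67037408-67037657 on the minus strand, and the Eda2r window chrX:97377210-97377459 on the minus strand.
Cdkn1a upstream start: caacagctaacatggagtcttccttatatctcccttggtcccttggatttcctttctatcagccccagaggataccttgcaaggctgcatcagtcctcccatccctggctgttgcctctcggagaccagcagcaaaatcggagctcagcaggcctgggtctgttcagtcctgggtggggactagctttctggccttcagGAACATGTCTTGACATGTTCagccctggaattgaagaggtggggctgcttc
Cdkn1a downstream start: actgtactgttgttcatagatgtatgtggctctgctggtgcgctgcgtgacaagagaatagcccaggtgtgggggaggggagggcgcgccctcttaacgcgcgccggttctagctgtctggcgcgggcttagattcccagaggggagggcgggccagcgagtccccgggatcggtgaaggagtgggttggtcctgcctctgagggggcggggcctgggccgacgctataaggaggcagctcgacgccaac
Bax: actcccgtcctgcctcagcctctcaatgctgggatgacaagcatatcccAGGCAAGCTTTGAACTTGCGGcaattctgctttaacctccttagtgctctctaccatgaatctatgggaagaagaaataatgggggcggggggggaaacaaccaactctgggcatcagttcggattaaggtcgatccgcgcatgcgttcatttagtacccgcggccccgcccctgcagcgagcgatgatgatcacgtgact
Gadd45a: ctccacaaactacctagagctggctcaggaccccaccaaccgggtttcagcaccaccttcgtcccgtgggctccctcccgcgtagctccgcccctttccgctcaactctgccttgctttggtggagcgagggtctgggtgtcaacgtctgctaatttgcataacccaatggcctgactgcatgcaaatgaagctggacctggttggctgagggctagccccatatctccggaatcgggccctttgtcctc
Eda2r: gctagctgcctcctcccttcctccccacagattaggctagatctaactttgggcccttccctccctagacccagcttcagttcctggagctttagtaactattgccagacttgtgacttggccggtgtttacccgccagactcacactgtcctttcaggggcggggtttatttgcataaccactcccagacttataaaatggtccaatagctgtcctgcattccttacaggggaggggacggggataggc

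At E9.5 some members were higher and others lower in null hearts, and most were not called. A call needed an adjusted p under 0.05 in limma (Benjamini-Hochberg) over all 13643 genes that averaged at least 0.5 RPKM, and 37 of the 38 members were among these. Of these 37, 5 were higher in null hearts (Cdkn1a, Btg2, Gadd45a, Eda2r and Pmaip1), where 6.87% of all tested genes were called higher. Another 2 were lower (Perp and Bad), where 10.3% of all tested genes were called lower, and 30 were not called. The share of members called in either direction, 7 of 37, stood beside 17.2% of all genes. The median log2 difference, null minus flox, was 0.06 over the members and -0.04 over all genes, with 23 members above 0 and 14 below, against 42.1% of all genes above 0. At an unadjusted p under 0.05 in limma, 5 members were higher and 5 lower, where 12.1% and 20.3% of all genes were. With voom on the recovered reads 4 were called higher and 2 lower, where 7.06% and 10.5% of all genes were. The authors' deposited table for this stage lists 6 of the 38 as lower in control (Btg2, Cdkn1a, Eda2r, Fas, Gadd45a and Pmaip1) and Bad and Perp as higher in control, where 6.63% and 5.99% of all genes are listed.

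**Figure D1:**
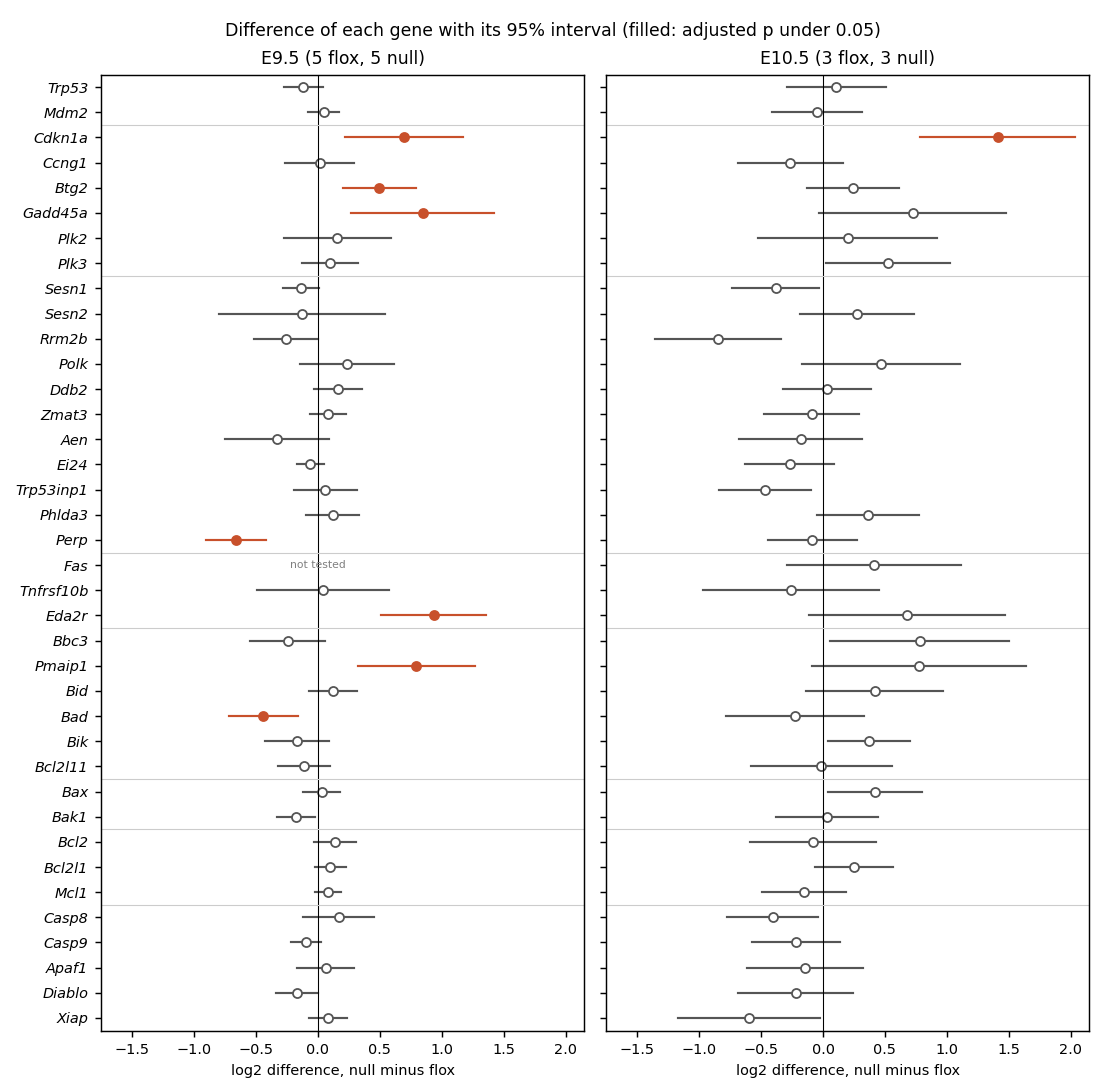
Each row is a gene, the horizontal axis is the log2 difference in RPKM between null and flox hearts, and bars are 95% intervals from limma, at E9.5 on the left and E10.5 on the right. Filled points are called: 5 higher and 2 lower at E9.5, and Cdkn1a alone at E10.5.

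Neither p53 nor its main inhibitor differed detectably in mRNA. Trp53 RPKM was 37.2, 34.3, 37.9, 36.7 and 35.9 in the E9.5 flox libraries and 34.9, 37.6, 35.4, 28.8 and 31.4 in the null libraries. The groups overlapped, and the log2 difference of -0.12 (SE 0.07) was not called (limma adjusted p = 0.280, 95% interval of the fold 0.827 to 1.03). At E10.5 Trp53 was 25.5, 29.0 and 35.1 RPKM in flox and 27.0, 36.3 and 33.3 in null libraries. Its level is uncertain to the extent that reads from its processed pseudogene were counted with it. Mdm2, which p53 induces, was 24.4, 22.0, 21.4, 23.3 and 23.6 RPKM in E9.5 flox and 21.6, 23.0, 24.9, 24.4 and 24.7 in E9.5 null libraries. The E10.5 values of Mdm2 were 23.2, 23.6 and 21.0 in flox and 25.6, 21.9 and 18.4 in null libraries. The groups overlapped at both stages. The 95% interval of the null over flox fold ran from 0.948 to 1.13 at E9.5 (limma adjusted p = 0.599) and from 0.750 to 1.24 at E10.5 (limma adjusted p = 0.869).

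Of the 6 genes of cell cycle arrest, 3 were higher at E9.5 and 0 were lower, where 6.87% and 10.3% of all tested genes were. All 6 had a positive difference, against 42.1% of all tested genes. The roles were set with earlier results of these data known. Cdkn1a RPKM was 6.37, 10.8, 7.99, 13.5 and 8.35 in flox and 11.7, 15.4, 13.5, 24.0 and 12.98 in null hearts. Null 4 was highest of all, and flox 4 lay above null 1 and null 5, so the groups overlapped. The mean rose from 9.39 ± 2.76 to 15.5 ± 4.93 RPKM (SD, n = 5 each), a ratio of 1.65 and a log2 difference of 0.69 (SE 0.22, limma adjusted p = 0.0486). That call was at the edge of the threshold: with no filter on low genes the adjusted p of limma was 0.0721. It also ended when any of 8 of the 10 libraries was left out (flox 1, 2, 3 and 5, and null 2, 3, 4 and 5), with differences of 0.53 to 0.75. With sex in the fit the limma adjusted p was 0.143. The call stood with arrayWeights (limma adjusted p = 0.0114) and with a replicate block (limma adjusted p = 0.000753), although replicate numbers were not taken as pairs.

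Btg2, an antiproliferative partner of the deadenylase complex, was 9.80, 10.7, 10.2, 12.5 and 10.7 RPKM in flox and 11.6, 15.9, 15.4, 21.4 and 14.2 in null hearts at E9.5. A single pair of values, null 1 and flox 4, kept the groups from separating. Its log2 difference was 0.49 (SE 0.13, limma adjusted p = 0.0282). Gadd45a, a stress gene of growth arrest and DNA repair, was 4.24, 4.85, 7.38, 5.01 and 5.36 RPKM in flox and 6.24, 11.0, 7.03, 19.6 and 9.80 in null hearts. Null 4 stood well above the rest. The mean went from 5.37 ± 1.198 to 10.7 ± 5.31 RPKM (SD, n = 5 each), with a log2 difference of 0.85 (SE 0.26, limma adjusted p = 0.0476). Its call ended in 6 of the 10 fits that left out a library (flox 1, 2, 4 or 5, null 2 or 5), with no filter (limma adjusted p = 0.0713) and with voom on the recovered reads (adjusted p = 0.0530), and that of Btg2 in 6 (flox 1, 2, 3 or 5, null 2 or 3). The other genes of arrest, Ccng1, Plk2 and Plk3, had log2 differences of 0.01 to 0.16 and were not called. Ccng1, cyclin G1, is one of the most strongly p53-dependent genes in many tissues, and it averaged 48.2 RPKM in flox and 48.5 in null hearts.

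**Figure D2:**
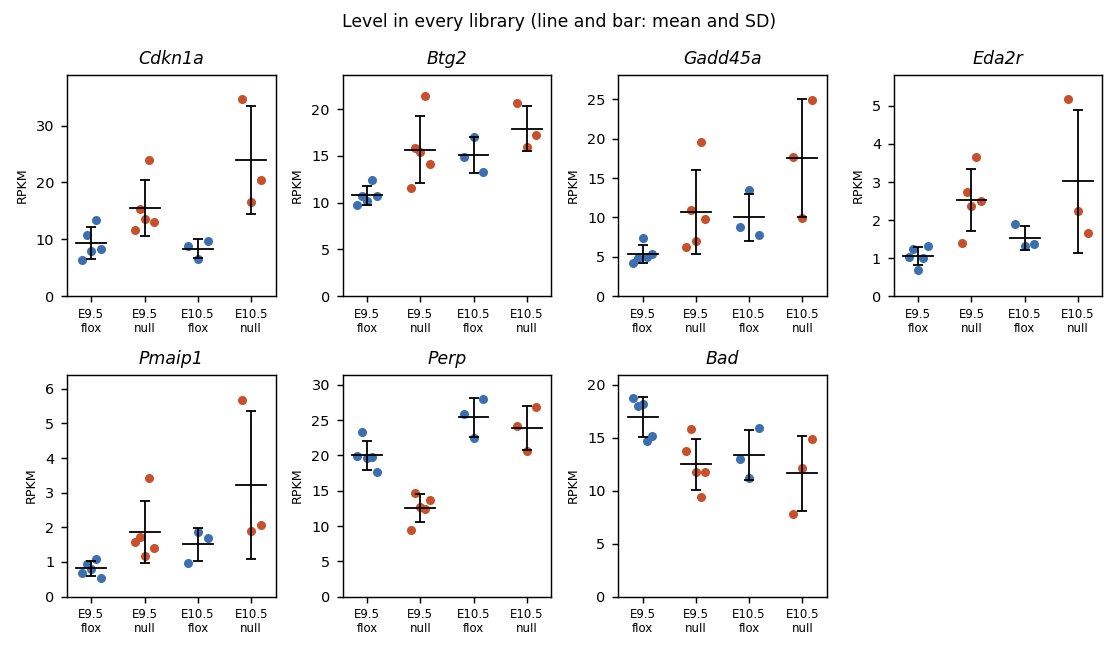
RPKM of the 7 called genes in each library, grouped by stage and genotype, where a point is a library and the line and bar are the mean and SD. Eda2r and Pmaip1 sit higher in every E9.5 null library than in every flox library, Perp sits lower, and at E10.5 Cdkn1a separates with null values of 16.6 to 34.7 RPKM above flox values of 6.56 to 9.74.

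Eda2r, a p53-inducible receptor of the TNF receptor family, gave the smallest p of the higher genes. It was 1.04, 1.23, 0.683, 1.001 and 1.31 RPKM in E9.5 flox and 1.40, 2.75, 2.36, 3.65 and 2.49 in E9.5 null hearts. Every null library was above every flox library, which held for 5.5% of all tested genes. The ratio of means was 2.40 and the log2 difference 0.93 (SE 0.19, limma adjusted p = 0.00838), on 78 to 396 reads per library, and no single library ended the call. Fas, the receptor of Fas ligand, was too low at E9.5 for the test, with 0.182, 0.119, 0.313, 0.385 and 0.349 RPKM in flox and 0.397, 0.557, 0.863, 0.836 and 0.589 in null hearts on 5 to 31 reads. Every null value again lay above every flox value. The authors' deposited table listed Fas as lower in control (log2 control over null -0.75, adjusted p = 0.00866). Tnfrsf10b, the mouse TRAIL receptor, averaged 2.96 and 3.19 RPKM, with a log2 difference of 0.04.

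The 6 BH3-only genes, which start the mitochondrial route, went both ways. Pmaip1 was 0.685, 0.947, 0.787, 1.10 and 0.544 RPKM in E9.5 flox and 1.57, 1.73, 1.19, 3.41 and 1.40 in E9.5 null hearts. All null libraries exceeded all flox libraries, although null 1 to 3 and 5 stayed under 2 RPKM. The log2 difference was 0.79 (SE 0.21, limma adjusted p = 0.0280), and it was no longer called without flox 1, 3 or 5 or null 2. Bad, whose product neutralises Bcl2 and Bcl2l1, fell: it was 18.8, 17.97, 18.1, 14.7 and 15.1 RPKM in flox and 13.7, 15.8, 11.7, 9.42 and 11.8 in null hearts. Only null 2 lay within the flox range. Its log2 difference was -0.44 (SE 0.12, limma adjusted p = 0.0349), and this call ended with no filter (limma adjusted p = 0.0509) and without flox 1, 2 or 3 or null 3, 4 or 5. Bbc3, a strong p53 target, had a difference of -0.24 at this stage (limma adjusted p = 0.245) that was called without null 4 (-0.36, limma adjusted p = 0.0357), and Bid, Bik and Bcl2l11 had differences of -0.17 to 0.12.

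Perp, a p53 target that codes for a membrane protein of desmosomes and was first described as an apoptosis effector, was the member with the smallest p. It was 19.9, 23.3, 19.7, 19.8 and 17.6 RPKM in E9.5 flox and 9.44, 14.7, 12.7, 12.4 and 13.7 in E9.5 null hearts. Every null library was below every flox library, as for 8.57% of all tested genes. The mean fell from 20.1 ± 2.05 to 12.6 ± 1.97 RPKM (SD, n = 5 each), a log2 difference of -0.66 (SE 0.11, limma adjusted p = 0.00310), and no single library ended the call. None of the other 10 stress and repair targets was called at E9.5, and their differences ran from -0.33 (Aen, a p53-induced nuclease) to 0.24 (Polk, a translesion polymerase).

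Among the effectors, guardians and caspase genes, 0 of 10 were called at E9.5, where 17.2% of all tested genes were. Bax averaged 57.9 ± 2.24 RPKM in flox and 59.4 ± 5.90 in null hearts, and Bak1 34.1 ± 1.82 and 30.1 ± 2.88 (SD, n = 5 each). The 3 guardians Bcl2, Bcl2l1 (BCL-XL) and Mcl1 had log2 differences of 0.14, 0.10 and 0.08. The genes of caspase activation, Casp8, Casp9, Apaf1, Diablo and Xiap, had differences of -0.17 to 0.17. Of these 10 genes, Bak1 and Diablo had an unadjusted p under 0.05 in limma, both lower in null.

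**Figure D3:**
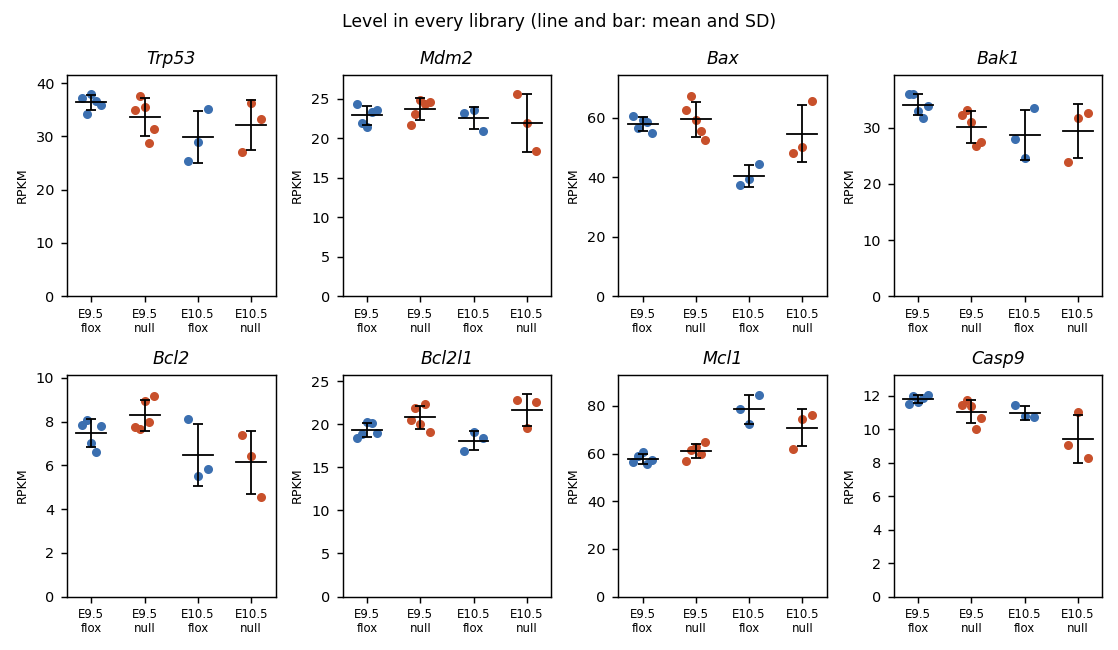
RPKM of Trp53, Mdm2, the effectors Bax and Bak1, the guardians Bcl2, Bcl2l1 and Mcl1, and Casp9 in each library, with the mean and SD. None was called at either stage; the Bax flox values lie lower at E10.5 (37.3 to 44.6) than at E9.5 (54.7 to 60.4), in tables that were made separately.

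At E10.5 a single member was called. All 38 were tested among 14100 genes, 1 was higher in null hearts (1.77% of all tested genes were called higher) and 0 were lower (0.305% of all). At an unadjusted p under 0.05 in limma, 5 members were higher and 5 lower, where 11.6% and 11.3% of all genes were, and voom on the recovered reads called 1 higher and 0 lower, where 1.82% and 0.411% of all genes were. With 3 libraries a group fewer calls can be made than with 5, and 37 members not called is no measure of likeness. The median log2 difference of the members was 0.01 and that of all genes -0.03, and 19 of 38 members lay above 0, against 46.3% of all genes.

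Cdkn1a was 8.86, 6.56 and 9.74 RPKM in E10.5 flox and 34.7, 16.6 and 20.5 in E10.5 null hearts. The groups did not overlap, and null 1 was the highest. The mean went from 8.39 ± 1.64 to 23.9 ± 9.49 RPKM (SD, n = 3 each), a ratio of 2.86 and a log2 difference of 1.41 (SE 0.27, limma adjusted p = 0.0414). Without null 1 it was 1.11 and still called (limma adjusted p = 0.0372). Leaving out any other library ended the call, with differences of 1.25 to 1.63 and limma adjusted p of 0.0542 to 0.142, as did including genes under the filter (limma adjusted p = 0.0868). The authors' deposited tables list Cdkn1a with a log2 control over null that is -0.61 for E9.5 hearts and -1.31 for E10.5 hearts. At E10.5 it is the 1 member they list as lower in control, where 3.8% of all genes are, and Rrm2b is the 1 they list as higher in control, where 1.73% are.

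The other genes called at E9.5 had wide intervals at E10.5. Btg2 was 14.9, 17.0 and 13.2 RPKM in flox and 20.6, 15.9 and 17.2 in null hearts. Gadd45a was 8.84, 13.4 and 7.75 in flox and 17.7, 9.94 and 24.9 in null hearts. Eda2r was 1.89, 1.33 and 1.38 in flox and 5.17, 2.23 and 1.67 in null hearts. In these 3 genes the groups overlapped at E10.5, and the log2 differences were 0.24, 0.72 and 0.68. Pmaip1 did not overlap, with 0.965, 1.86 and 1.70 RPKM in flox and 5.67, 1.90 and 2.07 in null hearts, but its highest flox and lowest null values lay side by side (limma adjusted p = 0.259). Perp was 25.8, 22.5 and 27.9 RPKM in flox and 24.2, 20.7 and 26.9 in null hearts, so the fall seen at E9.5 had no counterpart of that size (log2 difference -0.09, SE 0.16). Bad was 12.9, 11.2 and 15.9 in flox and 7.80, 12.2 and 14.9 in null hearts, with the lowest value in null 1.

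Groups that did not overlap were common at E10.5: every null library was above every flox library for 13.9% of all tested genes and below for 17.4%. Among the 38 members this was so for 8 above (Cdkn1a, Plk3, Phlda3, Bbc3, Pmaip1, Bik, Bax and Bcl2l1) and 5 below (Sesn1, Rrm2b, Ei24, Trp53inp1 and Casp8). Bbc3 was 1.24, 1.72 and 1.46 RPKM in flox and 5.06, 1.85 and 2.42 in null hearts, a log2 difference of 0.78 that was not called (SE 0.32, limma adjusted p = 0.195). Bax was 37.3, 39.3 and 44.6 in flox and 48.1, 49.99 and 65.6 in null hearts, with a difference of 0.42 (SE 0.16, limma adjusted p = 0.186). Rrm2b, the p53-inducible subunit of ribonucleotide reductase, was 5.25, 3.68 and 3.79 in flox and 2.33, 2.53 and 1.56 in null hearts. Its difference of -0.85 (SE 0.22) was the lowest of the members and was not called by limma (adjusted p = 0.0930), while the log2 control over null in the authors' deposited table is 0.84. Bbc3, Bax and Rrm2b are given in full because of these values, chosen after they were seen. Of the 11 stress and repair targets, 7 lay below 0 at E10.5 and 4 above. All 5 genes of caspase activation lay below 0, from -0.60 (Xiap, the caspase inhibitor) to -0.15 (Apaf1). In both roles 0 genes were called, and the roles were set with earlier results of these data known. Of all tested genes, 46.3% lay above 0 at this stage.

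Whether a difference itself changed from E9.5 to E10.5 was tested as an interaction over all 16 libraries. Of the 37 members in that fit, 0 passed at an adjusted p under 0.05 in limma and 0 with voom, where limma called 4.04% of 13418 genes, and 9 had an unadjusted p under 0.05, where 26.4% of genes did. The smallest p belonged to Bbc3, whose difference was 1.02 higher on the log2 scale at E10.5 (SE 0.32, limma adjusted p = 0.0703). It was followed by Perp at 0.57 (SE 0.18, limma adjusted p = 0.0772), Bik at 0.54 (SE 0.18, limma adjusted p = 0.0800) and Xiap at -0.68 (SE 0.23, limma adjusted p = 0.0859). For Cdkn1a the interaction was 0.72 (SE 0.37, limma adjusted p = 0.235), so its rises at the stages were not shown to differ. In flox hearts themselves, Ccng1 averaged 48.2 RPKM at E9.5 and 78.0 at E10.5, Trp53inp1 5.78 and 10.8, and Casp8 5.92 and 11.0. Aen averaged 14.8 and 8.001, Bbc3 3.08 and 1.47, and Bax 57.9 and 40.4. These levels come from separate tables with RNA inputs of 200 ng and 300 ng, and were not tested against each other.

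The hypoxia markers differed between libraries, and their level is given beside the members. The mean log2 level of 8 hypoxia genes was 3.31, 3.41, 3.62, 5.21 and 3.45 in E9.5 flox and 3.89, 3.90, 3.63, 5.86 and 3.86 in E9.5 null hearts. At E10.5 it was 3.08, 3.08 and 3.10 in flox and 6.05, 4.65 and 4.33 in null hearts, with no overlap. At E9.5, 0 of the 8 were called in limma and 1 had an unadjusted p under 0.05, at E10.5 2 were called, both higher (Ndrg1 and Ndufa4l2), with 7 of 8 not overlapping. Sesn2, a stress-responsive sestrin, was 3.35, 4.43, 4.50, 7.63 and 4.36 RPKM in E9.5 flox and 2.94, 4.48, 3.26, 10.1 and 3.00 in E9.5 null hearts, so that the high library in each genotype was number 4. At E10.5 it was 3.07, 3.82 and 3.31 in flox and 4.97, 4.64 and 3.198 in null hearts, and null 3 lay below flox 2 although its hypoxia level was higher. Null 4 was the highest null library for 14 of 37 members (37.8%, against 24.7% of all genes), Cdkn1a, Btg2, Gadd45a, Eda2r and Pmaip1 included, and E10.5 null 1 for 18 of 38 (47.4%, against 31.4%). Flox 4, the other E9.5 library of high hypoxia level, was the highest flox library for 8 of 37 members (21.6%, against 23.2% of all genes), and flox 2 for 11 (29.7%, against 22.6%).

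**Figure D4:**
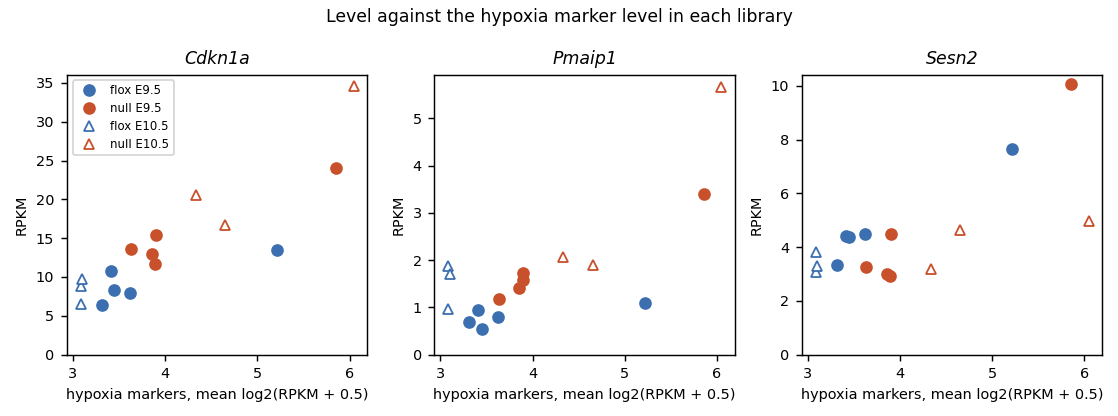
RPKM of Cdkn1a, Pmaip1 and Sesn2 against the mean log2 level of 8 hypoxia markers, where each symbol is a library (filled E9.5, open E10.5). The libraries with the highest marker levels, flox 4 and null 4 at E9.5 and null 1 at E10.5, also hold the highest Cdkn1a value of their group. In these libraries the summed epicardial, handling stress, and endothelial and endocardial markers were also the highest of their group.

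With the hypoxia level as a covariate the E9.5 calls stood, 5 higher and 2 lower, and Cdkn1a was 0.53 (limma adjusted p = 0.0144). With flox 4 and null 4 both left out, 4 were higher and 2 lower, where 6.85% and 9.81% of all genes were. Gadd45a was the gene lost (0.59, limma adjusted p = 0.0757). At E10.5, where the levels of the groups do not overlap, the same covariate left Cdkn1a at 0.39 (limma adjusted p = 0.582), and genotype and hypoxia level cannot be told apart there. The erythroid level is the covariate under which no member was called at E9.5, 0 higher and 0 lower, while the calls over all genes fell to 0.484% and 0.110%. Under it Cdkn1a was 0.43, Eda2r 0.70 and Perp -0.73, and Gadd45a changed sign to -0.22. Their SE were 0.38, 0.34, 0.20 and 0.23, against 0.22, 0.19, 0.11 and 0.26 without the covariate. The mean log2 erythroid level was 5.53 to 6.76 in flox and 6.72 to 7.85 in null libraries. With so little overlap, genotype and erythroid level can hardly be told apart in this fit. Sex or the epicardial level as a covariate left 1 member higher, Eda2r, and 1 lower, Perp. Of all genes, 4.17% were called higher and 4.9% lower with sex, and 5.29% and 6.89% with the epicardial level. The part of red cells, sex or epicardial cells in the other calls was not tested further. The summed macrophage markers were 2.54 to 7.56 RPKM in flox and 3.59 to 12.8 in null hearts at E9.5. Their part was not tested.

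The wider lists around the members are read against 6.87% of all genes called higher and 10.3% called lower at E9.5. Of 19 tested p53 regulators at E9.5, 1 was higher, the checkpoint kinase Chek2 (6.73 to 8.80 RPKM, limma adjusted p = 0.00724). Another 3 were lower, among them Mta1, a CHD4 partner (41.4 to 33.6 RPKM, limma adjusted p = 0.0280) and the kinase Atm (5.26 to 4.34 RPKM, limma adjusted p = 0.0316). Of 35 other p53 targets, 2 were higher at E9.5, one of them Steap3, a ferrireductase (5.36 to 9.63 RPKM, limma adjusted p = 0.0148), and 2 were lower, one of them Siva1 (16.8 to 13.2 RPKM, limma adjusted p = 0.00680). The non-coding Pvt1 was the other that was higher (0.544 to 1.07 RPKM, limma adjusted p = 0.0224). Steap3 also serves iron uptake in red cell precursors. Their markers rose at this stage, and their part in the Steap3 difference was not tested. Among 30 other apoptosis genes 0 were higher and 2 lower, Parp1 (70.9 to 56.0 RPKM, limma adjusted p = 0.0163) and the nuclease gene Endog (22.2 to 17.5 RPKM, limma adjusted p = 0.0245). Of the 5 other CDK inhibitors, Cdkn1c (p57) was lower, from 716 to 520 RPKM (limma adjusted p = 0.0179), opposite in sign to Cdkn1a. Of these lists, the authors' deposited table for E9.5 has Chek2, Steap3, Pvt1, Ephx1, Tob1, Fasl and Hrk as lower in control. It has Atm, Mta1, Crebbp, Siva1, Ak1, Parp1, Bcl2l12 and Cdkn1c as higher in control. Of all genes it lists 6.63% as lower and 5.99% as higher in control.

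At E10.5 these lists held 3 calls in limma, all among 39 other p53 targets and all higher, where 1.77% of all genes were called higher. Ier3, an early response gene, averaged 4.73 RPKM in flox and 46.1 in null hearts with a null SD of 41.1 (limma adjusted p = 0.0297). The stress cytokine Gdf15 averaged 0.0709 and 1.03 RPKM, with as few as 2 reads in a flox library (limma adjusted p = 0.0355). Fdxr, the mitochondrial ferredoxin reductase, averaged 3.28 and 7.24 RPKM (limma adjusted p = 0.0405). Of 20 p53 regulators, 30 other apoptosis genes and 6 other CDK inhibitors, 0 were called in limma. At an unadjusted p under 0.05 in limma, 0 regulators were higher and 4 lower. The apoptosis genes had 3 higher and 2 lower, and the CDK inhibitors 1 higher and 0 lower. In 7 of the 20 regulators every null library was below every flox library, where 17.4% of all genes were, and 0 were above. Their median log2 difference was -0.17, with 14 of 20 below 0. At that unadjusted threshold, limma put 12 of the 39 other p53 targets higher and 2 lower, where 11.6% and 11.3% of all genes were. In 14 of these 39 every null library was above every flox library, where 13.9% of all genes were, and 3 were below. Their median log2 difference was 0.21, with 27 of 39 above 0. This list, like the others, was chosen with earlier results of these data known. Of the other p53 targets, the authors' deposited table for E10.5 lists Ier3, Gdf15, Fdxr, Psrc1, Ephx1, Pvt1, Epha2 and Slc19a2 as lower in control. It also lists the apoptosis gene Bnip3 as lower in control, and the regulators Chek1 and Sirt1 as higher. Of all genes it lists 3.8% as lower and 1.73% as higher in control.

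CHD4 peaks found in all 3 ChIP lists, by at least 1 bp of overlap, lay within 5 kb of 28 of the 38 members (73.7%), and of 61.9% of all genes tested at either stage. Genes with more RNA have peaks more often: above the median expression the share was 85.7% of 21 members and 74.5% of all genes, and below it 58.8% of 17 members and 49.4% of all genes. By role, all 6 genes of cell cycle arrest had a peak, as did both Trp53 and Mdm2, 5 of 6 BH3-only genes, both effectors and all 3 guardians. The stress and repair targets had one in 6 of 11, caspase activation in 4 of 5, and the death receptors in 0 of 3. For 17 members a peak lay over the transcription start or, where no start was in the table used, over a gene end. The same share was not counted over all genes. Within 1 kb, 65.8% of members and 54.8% of all genes had a peak. The Trp53 promoter peak, chr11:69580046-69580567, had the highest of the authors' scores in this set, 399. Of the called genes, Cdkn1a, Btg2, Gadd45a and Bad had a peak and Eda2r, Pmaip1 and Perp had none.

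**Figure D5:**
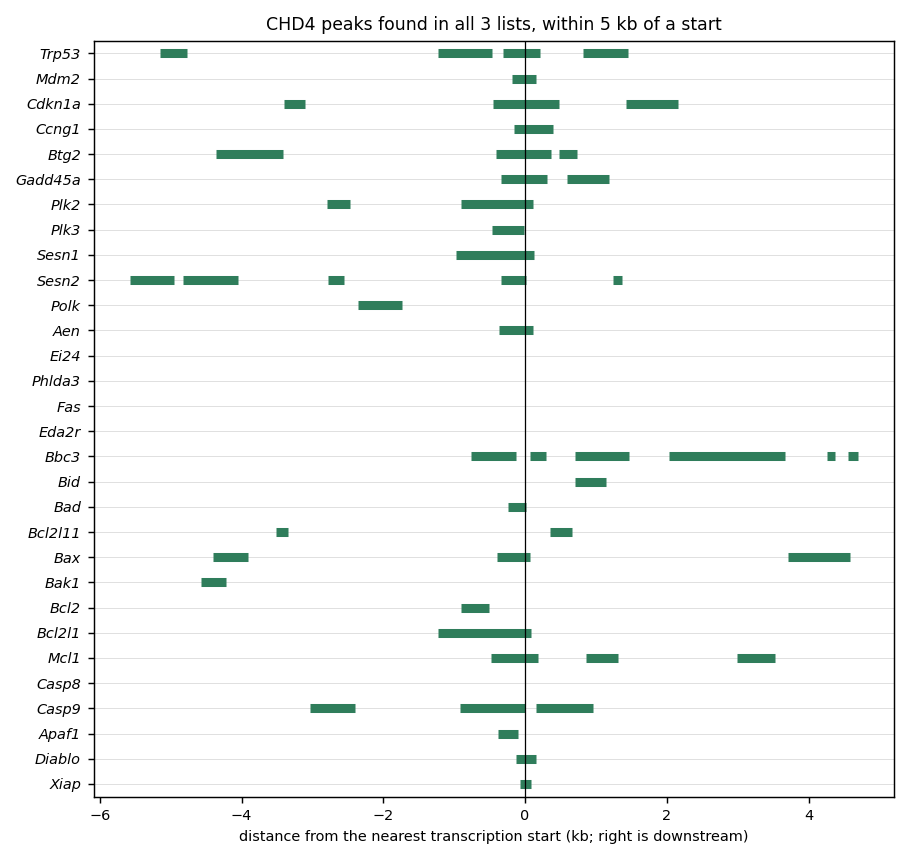
Bars are CHD4 peaks found in all 3 lists, drawn at their distance in kb from the nearest transcription start, for the 30 members with an annotated start. The start of Trp53, Cdkn1a, Btg2 and Gadd45a lies within a peak, and Eda2r, Fas, Casp8, Ei24 and Phlda3 have no peak in the window.

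In the printed windows the p53 response element was searched as its standard consensus by name, on both strands at once since it is its own reverse complement, with the core bases exact, at most 2 mismatches and a spacer of at most 13 bases. It occurred in 3 of 30 members with a promoter in the table (10.0%) and in 2.47% of all 27025 genes, in windows of 300 bases that ran 50 bases past the start. Before the upstream Cdkn1a start it had 1 mismatch and no spacer and began 51 bases before the start. Of the 3 shared CHD4 peaks near this gene, chr17:29093309-29094248 covers the downstream start, and none of the 3 overlaps the window with that element. In Bax the match had 2 mismatches and a spacer of 1 base, began 201 bases before the start, and lay within the CHD4 peak at chr7:45466827-45467289. The bounds of that peak are those of the first list, and the other lists were not checked at the match. The remaining match was at the downstream start of Sesn1, with 2 mismatches, where there was no CHD4 peak. A match is a stretch of letters and not a measured binding site, and no p53 binding was measured here.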

How the data were processed

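RPKM per gene and library were deposited by the authors, with their gene lengths in bp (another deposited column), which gave whole reads within 0.01 for 100% of values. Per the submitters' processing notes, reads were handled on mm10 with MACS2, DESeq2 1.6.3, HTSeq 0.6.2, bedtools 2.25.0, SAMtools 1.6 and Bowtie 1.2.0, in no stated order. Whether counting used strand is not stated, so antisense reads may be included. The comparison tables of the authors give log2 values of control over null and adjusted p-values, and their mean signal per gene, also deposited, was not used. Peak lists carry a whole-number score per peak that the authors deposited, on an unstated scale.

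Each stage was fitted alone on log2(RPKM + 0.5), a scale that shrinks differences of low genes, keeping genes that averaged 0.5 RPKM or more (limma 3.58.1, R 4.3.3, trend, two-sided, Benjamini-Hochberg over all tested genes, threshold 0.05). Fits were tested on simulated data in which each gene was drawn on its own, so shifts shared across a library were not covered. The stage difference was an interaction in a single fit. Peaks were counted within 5 kb of a start (30 members) or of either gene end (8). Shared peaks have the bounds and scores of the first list, kept where each other list overlapped them by at least 1 bp. Promoters came from RefSeq, GRCm38.p6. Depth covers counting error only, and p-values measure the spread between libraries.

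Members, roles, wider lists and tests were chosen with earlier results of these data known. Values in every library were planned for Trp53, Cdkn1a, Mdm2 and each called member, and up to 3 called genes of smallest p per wider list (p53 regulators, other p53 targets, other apoptosis genes, CDK inhibitors) and stage were to be named. Other lists were markers of cardiomyocyte, erythroid, endothelial and endocardial, epicardial, cushion mesenchyme, foregut and liver, neuronal and macrophage cells, hypoxia and handling stress. Alternatives were pseudocounts of 0.1 and 1, no filter or 1 RPKM, median scaling, arrayWeights, rescaling that leaves out erythroid genes and the 10 most abundant, a replicate block, voom on recovered reads, the erythroid level, sex, leaving out each library, and for peaks windows of 1 and 50 kb, single lists, the upper part by score and a larger overlap. The hypoxia and epicardial levels and leaving out flox 4 and null 4 were added after seeing the data.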

Additional observations from a re-analysis of the deposited data

Results flagged for a closer look

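In groups of 5 libraries, a member was set aside where its highest or lowest library stood apart from the others (Dixon's gap at the 95% level). This held for 6 of 76 groups, and chance gives about 1 in 20. At E9.5, null 4 stood apart for Plk2, a polo-like kinase (55.8 RPKM, others 25.6 to 32.8), for Pmaip1 (3.41 RPKM, others 1.19 to 1.73), for Polk (5.61 RPKM, others 2.69 to 3.38) and for Sesn2 (10.1 RPKM, others 2.94 to 4.48). In flox 4, Sesn2 stood apart at 7.63 RPKM with the others at 3.35 to 4.50. In flox 2, Sesn1 stood apart at 8.01 RPKM with the others at 6.87 to 7.16. Flox 4 and null 4 are also the E9.5 libraries with the highest hypoxia marker level, 5.21 and 5.86. They also held the highest sums of their groups for epicardial (310 and 429 RPKM), handling stress (114 and 101) and endothelial and endocardial markers (292 and 289). Null 4 held the highest erythroid (75115 RPKM) and macrophage sums (12.8) of the null group as well. The part of these levels in the values set apart was not tested.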

How the results depend on the processing

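The count of members higher at E9.5, 5, was 4 or 5 under other pseudocounts, filters and scalings, arrayWeights and voom. In those fits 5.08% to 10.5% of all genes were called higher. With no filter Cdkn1a and Gadd45a were lost and Fas, then tested, was called (0.57, limma adjusted p = 0.0263). The count was 0 with the erythroid level, 1 with sex and 1 with the epicardial level in the fit, and 1 to 5 when each library was left out. Of all genes, 0.484%, 4.17%, 5.29% and 4.93% to 8.05% were called higher in these fits, in this order. The count lower, 2, was 1 with no filter, 0 with the erythroid level, 1 with sex, 1 with the epicardial level and 1 to 2 when each library was left out. It was 3 with arrayWeights, Bbc3 being added (-0.31, limma adjusted p = 0.0498). Of all genes, 6.11%, 0.11%, 4.9%, 6.89%, 6.35% to 12.3% and 15.5% were called lower in these fits, in this order. At E10.5 the 1 member higher became 0 with no filter, 0 with the erythroid level, 0 with sex, 0 with the hypoxia level and 0 with the epicardial level, and 0 to 1 when each library was left out. The 0 lower became 2 with arrayWeights, Rrm2b among them (-0.69, limma adjusted p = 0.0421), and stayed 0 with each library left out. For the stage difference the 0 members became 3 without E10.5 null 2 and 1 without E9.5 null 4. These counts for E10.5 and for the stage difference are given without the share of all genes in the same fits. They are not read as a result about the members. Members with a shared peak, 28, ranged from 23 to 36, where 53.1% to 90.0% of all genes had a peak. Signs turned with the erythroid level for Gadd45a at E9.5 (-0.22) and Mdm2 at E10.5 (0.022), and with the hypoxia level at E10.5 for Btg2 (-0.10), Eda2r (-0.84), Pmaip1 (-0.78), Bbc3 (-0.46) and Bad (0.72). With each library left out, Bax at E9.5 ranged from -0.015 to 0.076, and at E10.5 Mdm2 from -0.17 to 0.069, Perp from -0.18 to 0.011 and Bad from -0.42 to 0.026. The cause of these changes was not tested. In the E10.5 fits with the hypoxia level, genotype and that level cannot be told apart, since the flox and null levels do not overlap.

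Same-numbered libraries did not deviate together throughout (correlations from -0.14 to 0.52 at E9.5 and from -0.03 to 0.11 at E10.5), so the numbers were not taken as pairs, and 3 of 5 and 2 of 3 libraries correlated best with their own number. With a replicate block, 5 members were higher and 5 lower at E9.5, where 10.2% and 16.9% of all genes were called. At E10.5 that fit called 1 higher and 0 lower, and 5 members differed between stages. The shares of all genes called at E10.5 and between stages with the block are not given here. The 5 are therefore not read as a result about the members.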
